A study of Drosophila melanogaster with 4 samples.

Results

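The regions described here are the 299 places in the *Drosophila melanogaster* genome where chromatin precipitated with the tagged transcription factor Chinmo gave a strong peak in all 4 libraries of a chromatin immunoprecipitation sequencing (ChIP-seq) experiment. Summits whose windows of 100 bp on either side touched were taken as 1 region across the 4 lists, which gave 5744 joined regions, 5694 of them outside the chinmo locus. The regions were chosen by signal: a joined region was kept if it held a summit of every library and if its best peak stood in the upper 25% of each library's own list by the deposited signal value. Of the 1145 regions outside the locus that were found in all 4 libraries, 299 met that rule, which is 26.1% of them and 5.25% of the 5694 joined regions. The locus itself, which holds the gene of the tagged factor, was left out as a window of 130 kb on arm 2L. Of its 22 four-library regions, 13 would have met the rule. The signal values and ranks therefore chose the regions, and they are given below as a description.

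The samples form 1 group of 4 biological replicates, and there is no second condition. Each was whole embryos aged 6 to 24 h of the strain chinmo-GFP, in which Chinmo was fused to enhanced GFP, and the immunoprecipitation used an antibody against GFP. The labels do not say whether untagged Chinmo was also present, and whole embryos hold many cell types that peak lists cannot separate. Libraries of a control experiment are named in the labels and were not analysed here.

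Chinmo belongs to the BTB zinc finger family, whose members pair through the BTB domain and contact DNA through zinc fingers. It is known in flies for setting the identity of early-born neurons, for growth of neural stem cells and their tumours, and for sex maintenance in testis stem cells. Fly promoters carry a small set of recurring short words. CGATA is the word bound by the boundary protein BEAF-32, and TATCGATA, the DNA replication-related element (DRE), is bound by the factor DREF at many housekeeping genes.

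Windows of 201 bp around the centres of 6 regions show sequence from highly ranked regions. After their values and sequences were seen, they were picked from 12 regions of arms 2L, 3L, 3R, X and 4 touching no annotated UTR. They do not stand for all leading regions, since the regions in places 1 to 3 and 7 more of the first 25 lie on the remaining arm, of which no sequence is shown. They are the introns of ftz-f1, bun and upSET, the intergenic region beside NimC3 and the promoter of noc, all among the 25 leading regions, and the promoter of spi at place 31. The 12 were the highest-ranked such regions down to upSET, with the next such promoter regions, Glyp and spi, added for their class. Capitals mark CGATA on either strand (TATCG on the other) and runs of CACACA on either strand (TGTGTG on the other). Sequences are from the RefSeq genome of Release 6 (dm6), plus strand, 5′ to 3′. The noc window holds neither word, and the NimC3 window holds 1 CGATA near its edge. In the ftz-f1 and bun windows too the CGATA lies outside the central 101 bp, over which the word is counted further on.
ftz-f1, intron, chr3L:18759269-18759469: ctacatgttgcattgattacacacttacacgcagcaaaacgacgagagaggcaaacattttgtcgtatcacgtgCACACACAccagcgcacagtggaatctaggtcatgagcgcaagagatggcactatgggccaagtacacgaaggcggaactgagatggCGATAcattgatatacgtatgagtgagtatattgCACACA
NimC3, intergenic, chr2L:14021768-14021968: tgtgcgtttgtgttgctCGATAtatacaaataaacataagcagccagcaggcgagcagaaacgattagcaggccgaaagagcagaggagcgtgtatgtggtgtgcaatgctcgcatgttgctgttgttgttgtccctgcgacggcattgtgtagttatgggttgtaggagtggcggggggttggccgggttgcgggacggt
bun, intron, chr2L:12529613-12529813: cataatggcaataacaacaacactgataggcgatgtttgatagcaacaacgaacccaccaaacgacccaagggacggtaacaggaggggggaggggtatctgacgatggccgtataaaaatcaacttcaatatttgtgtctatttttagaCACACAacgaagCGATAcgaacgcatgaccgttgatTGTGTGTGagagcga
upSET, intron, chr3L:14005180-14005380: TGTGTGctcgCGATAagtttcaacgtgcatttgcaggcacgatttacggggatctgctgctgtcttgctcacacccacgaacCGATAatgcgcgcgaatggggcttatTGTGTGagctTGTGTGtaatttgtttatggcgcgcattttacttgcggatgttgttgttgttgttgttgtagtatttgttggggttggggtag
noc, promoter, chr2L:14490603-14490803: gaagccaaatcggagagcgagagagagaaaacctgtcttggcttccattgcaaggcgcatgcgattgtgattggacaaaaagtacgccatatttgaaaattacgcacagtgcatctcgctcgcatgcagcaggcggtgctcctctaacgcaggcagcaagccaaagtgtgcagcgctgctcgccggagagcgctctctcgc
spi, promoter, chr2L:19575230-19575430: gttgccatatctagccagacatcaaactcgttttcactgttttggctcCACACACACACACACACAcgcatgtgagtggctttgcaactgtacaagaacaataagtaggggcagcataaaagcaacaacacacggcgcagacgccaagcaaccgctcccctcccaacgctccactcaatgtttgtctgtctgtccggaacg

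A different kind of region is shown by 5 promoters in which CGATA lay 3 or 4 times within 101 bp of sequence. They were chosen for that count after the values were seen, from 67 promoter regions of the same arms whose 101 bp touched no annotated UTR, and are printed on the same strand with the same use of capitals. SMC1 encodes a cohesin subunit, Nrg the adhesion molecule Neuroglian, su(w[a]) a splicing regulator, and RpL32 a protein of the large ribosomal subunit. In CG6325 the copies formed 2 whole TATCGATA words, each of which reads as CGATA on both strands and was counted as 2 copies. Nrg and su(w[a]) also held such a word.
SMC1, promoter, chr3R:24058184-24058284: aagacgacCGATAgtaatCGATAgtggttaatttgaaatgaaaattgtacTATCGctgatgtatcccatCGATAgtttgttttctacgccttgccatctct
Nrg, promoter, chrX:8517228-8517328: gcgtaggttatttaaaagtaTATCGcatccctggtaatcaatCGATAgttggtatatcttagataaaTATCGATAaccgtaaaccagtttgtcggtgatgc
su(w[a]), promoter, chrX:1033195-1033295: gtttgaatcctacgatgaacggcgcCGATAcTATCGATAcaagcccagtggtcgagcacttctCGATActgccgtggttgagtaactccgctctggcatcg
CG6325, promoter, chr3R:10407304-10407404: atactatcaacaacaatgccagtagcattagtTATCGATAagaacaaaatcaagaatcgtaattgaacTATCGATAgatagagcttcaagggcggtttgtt
RpL32, promoter, chr3R:30046177-30046277: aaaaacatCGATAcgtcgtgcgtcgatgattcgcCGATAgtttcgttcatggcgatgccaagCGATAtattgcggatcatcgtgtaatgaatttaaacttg

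The 4 lists held 3435, 4415, 2225 and 3038 peaks in replicates 1 to 4, so the upper 25% meant 858, 1103, 556 and 759 peaks. Lists of peaks hold no read counts, so the depth behind a value is unknown. The limit fell at signal values of 75.7, 152, 92.7 and 94.9 (no unit stated), and the 299 regions had median signal values of 109, 240, 137 and 150. The other 846 four-library regions had medians of 70.7, 153, 73.5 and 86.8. The median of the 299 regions was 1.98 ± 0.114 times the median of its own list (SD, n = 4), as the rule requires it to be high. Replicate 3 had the shortest list and set the limit most often: of 183 regions that missed it in 1 library alone, 92 missed it in replicate 3, 53 in replicate 1, 24 in replicate 4 and 14 in replicate 2.

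At the limit the ranks ran on without a gap. The last region inside lay at the promoter of Drat, at ranks 339, 201, 550 and 729 in replicates 1 to 4 (rank 1 is the strongest peak), and the next ones inside were at Cortactin, sdt, upstream of brk and at obst-B. The first region outside was at rdx, at ranks 423, 1104, 149 and 323, where rank 1104 of replicate 2 was 1 place too low. After it came a further region of spi, then Sec61beta, TP53INP and Atg16. The lowest of the 4 rank percentiles, which is the percentage of peaks in a list that are no stronger than the peak, was 75.33 at Drat and 75.02 at rdx. Regions on either side of the limit are thus alike in signal.

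The libraries ordered the 299 regions alike to different degrees. Across the 299 regions Spearman's rho of the ranks was 0.721 between replicates 1 and 2 and 0.749 between replicates 3 and 4. In the 4 pairs that cross these, it was 0.520 to 0.576. Among the other 846 regions the same 2 pairs had 0.568 and 0.482, and the crossing pairs had 0.118 to 0.312. These correlations are taken across regions, which are not replicates, and the rule limits the range of ranks in the 299. The rule also takes every region high in all 4 lists out of the 846, so rho of the 2 sets cannot be compared. What the 2 pairs of libraries have in common is not given in the labels. The signal of a region was also scaled by the median of the 299 regions in the same library. This scaled signal varied over the 4 libraries with a median SD of 0.20 on the log2 scale.

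**Figure D1:**
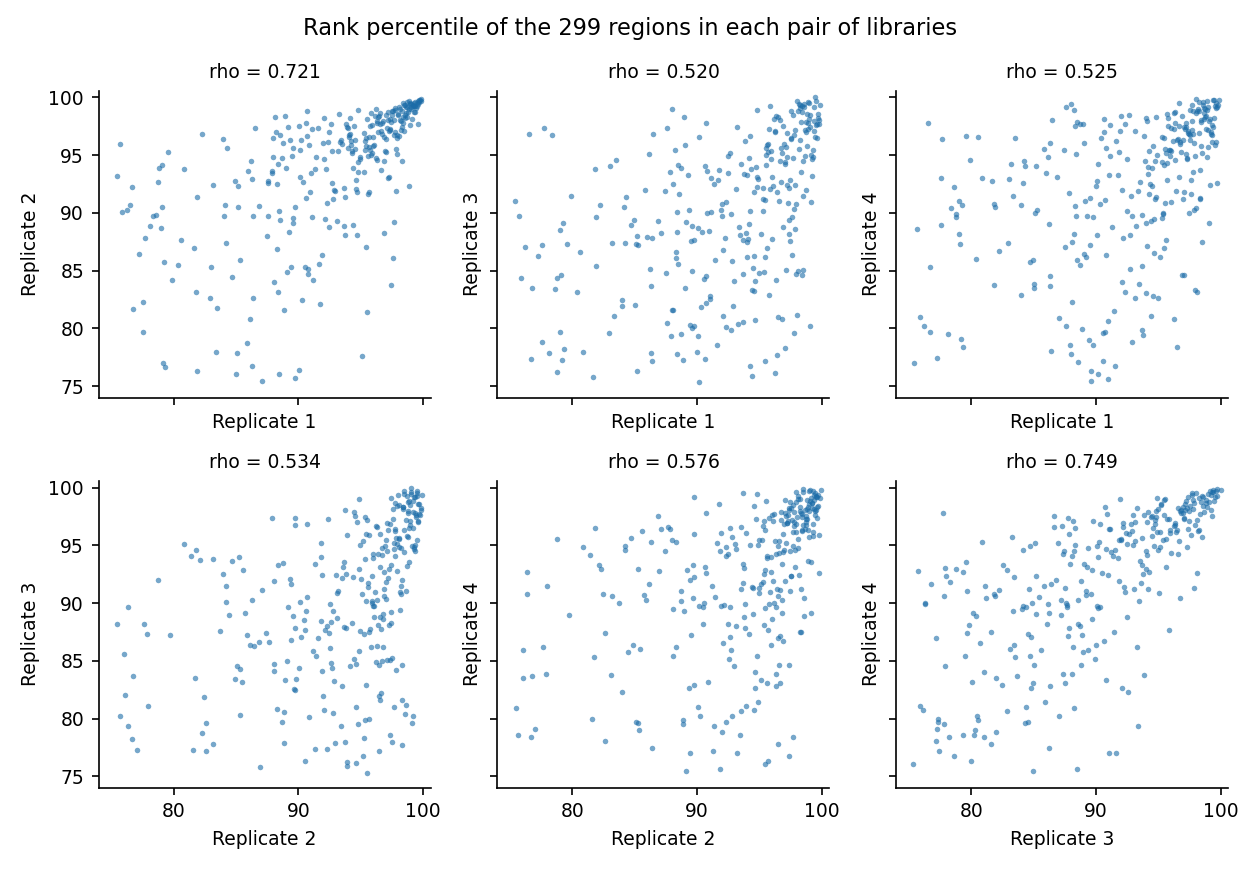
Rank percentile of each of the 299 regions in the library on the x axis against the library on the y axis, 1 panel per pair of libraries and 1 point per region (100 is the strongest peak of a list, and the rule cuts at 75). The order is most alike for replicates 1 and 2 (rho = 0.721) and for replicates 3 and 4 (rho = 0.749).

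Within a library, the longer ranked lists carry the signal of both inputs that the authors' reproducibility analysis compared, and all 299 regions could be matched there. The median ratio of the larger to the smaller value was 1.19, 1.14, 1.19 and 1.16 in replicates 1 to 4. In the other 846 regions it was 1.23, 1.17, 1.25 and 1.23, higher in each library. The rule used the signal of these same peaks, so this difference is a description and no measure of reproducibility. Summits of the 4 libraries lay within a median of 46 bp of each other at the 299 regions, against 54 bp at the other four-library regions. They fell within 50 bp in 56.5% of the 299 regions, against 45.9% of the others. The strongest regions also had more than 1 called peak per library in some places, since 73 of the 299 joined more than 4 peaks, against 143 of the other 846. The rule takes the best peak of each library, so a region with more peaks had more chances to pass it.

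The region with the highest mean rank lay in an intron of KCNQ, a voltage-gated potassium channel gene, 1115 bp upstream of mlt (chr2R:10159783-10160322), at ranks 6, 6, 15 and 7. Its signal values were 248, 530, 298 and 348. Next, with the promoter of Sox14, a gene of the Sox family induced by ecdysone, came ranks 20, 43, 1 and 8. It was the strongest peak in the list of replicate 3. The third lay in the 3′ UTR of Ppa, an F-box protein gene, at ranks 18, 22, 8 and 24. Capr, the gene of the RNA-binding protein Caprin, followed with a promoter region at ranks 23, 34, 20 and 9. In place 5 was an intron of ftz-f1, an orphan nuclear receptor gene active in segmentation and in the response to ecdysone (chr3L:18759192-18759509), at ranks 37, 23, 11 and 25.

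In all 4 libraries these 5 regions stood among the first 50 peaks, in lists of 2225 peaks or more. Further down, intergenic regions near NimC3, of the Nimrod family of immune receptors, and near CG15629 held places 6 and 7. An intron of bun, which encodes a TSC22-family transcription factor, held place 8 at ranks 13, 9, 40 and 29. Sema1b, a semaphorin gene of axon guidance, had a promoter region at ranks 8, 14, 52 and 21. EcR, the ecdysone receptor gene, had one at ranks 41, 16, 33 and 49. Of the 25 leading regions, 24 were among the first 100 peaks of every list, as were 33 of all 299.

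The rest of the 25 mixed promoters with sites inside genes. Promoters were those of CG33453, MESK2, GstE12 (a glutathione S-transferase), IntS6 (an Integrator subunit, beside the helicase gene Rtel1), noc (a zinc finger factor of eye and leg growth) and Eglp4. Intron sites lay in Cerk (ceramide kinase), CG5953, Kr-h1 (a zinc finger factor of juvenile hormone signalling), CG45088, raw (a brake on JNK signalling in dorsal closure), upSET (a SET-domain chromatin factor) and Hr39 (a nuclear receptor). The region in Kr-h1 is nearest to the start of CG45075, and the one in Hr39 to l(2)k14505. The region nearest to Fmr1, the gene of the RNA-binding protein FMRP, was 14728 bp from a start site. By class, 10 of the 25 were promoters, 10 introns, 4 intergenic and 1 a 3′ UTR.

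**Figure D2:**
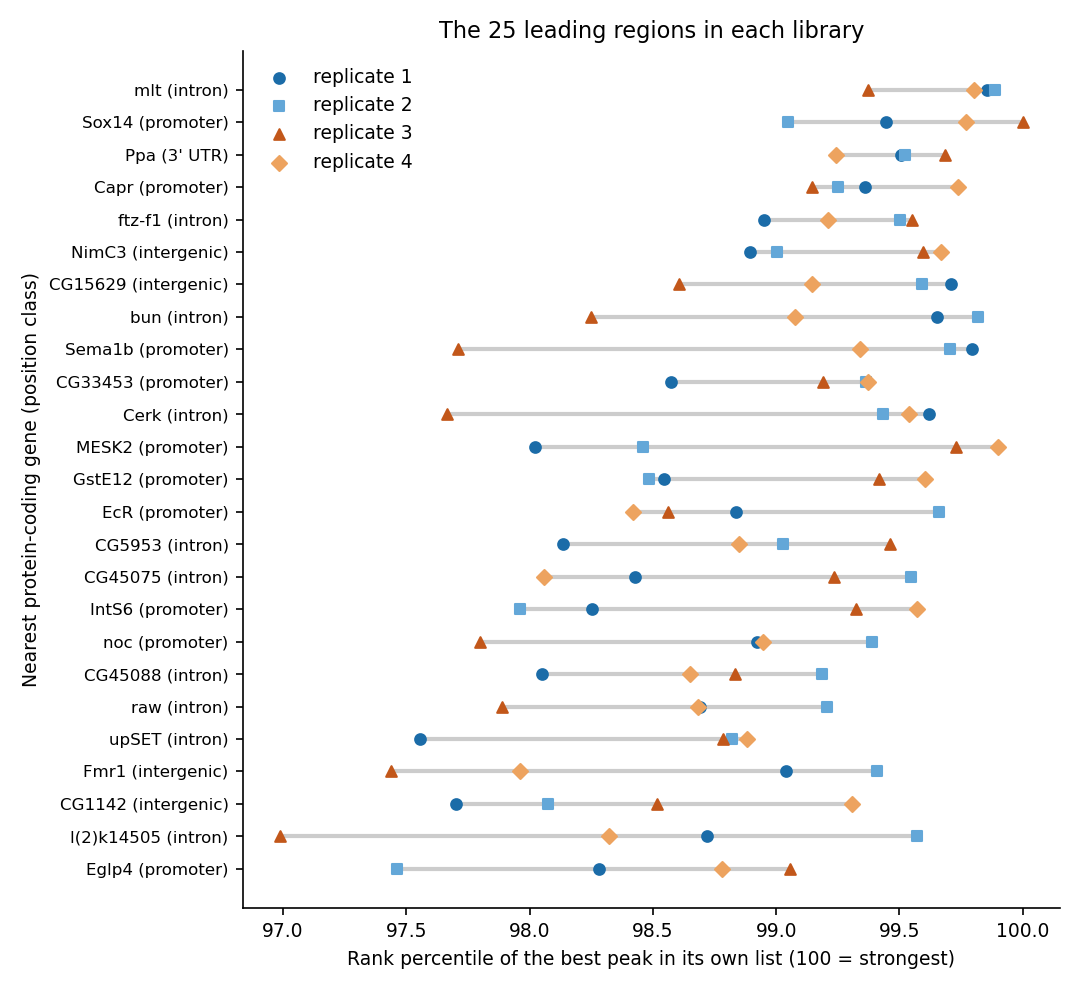
Rank percentile of the best peak in each of the 4 libraries (symbols) for the 25 regions with the highest mean, named by the nearest protein-coding start site with the position class of the centre; the grey bar spans the 4 libraries. The region near mlt, in KCNQ, has percentiles of 99.4 to 99.9, and the region in Hr39, nearest to l(2)k14505, spans 97.0 to 99.6.

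Some regions moved far between lists. The widest range belonged to the promoter shared by Rpn6, a proteasome lid subunit gene, and ave, at ranks 807, 412, 72 and 68. CkIalpha, a kinase gene of Wnt and Hedgehog signalling, stood at ranks 126, 75, 497 and 69. The site in a coding exon of InR, the insulin receptor gene, had ranks 291, 118, 477 and 707. An intron of osa, a subunit gene of the Brahma remodelling complex, had ranks 836, 179, 230 and 347. No library was the lowest in all 4 of these regions.

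Most of the 299 regions lay at promoters, taken as within 1000 bp of the transcription start site (TSS) of a protein-coding gene. They were 215 of 299, or 71.9% (95% exact binomial interval 66.4 to 76.9), against 71.5% of the other four-library regions. Introns held 59 regions (19.7%, against 18.3%), intergenic DNA 21 (7.02%, against 8.51%), coding exons 2 and 3′ UTRs 2. None had its centre in a 5′ UTR outside promoters, which allows a share of up to 1.23% by the exact binomial interval. Taking each library's own summits, the promoter share was 71.7 ± 0.193% for the 299 regions and 71.5 ± 0.113% for the others (SD, n = 4 libraries). The difference was 0.197 ± 0.252 percentage points, smaller than its spread (exact sign-flip permutation over the 4 libraries, two-sided, p = 0.375). Its sign changed in 5 of 12 alternatives, and with the limit at the upper 10% of each list the difference was -8.30 points, negative in 4 of 4 libraries (exact sign-flip p = 0.13, the smallest that 4 libraries can give).

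A set of 4 libraries cannot give a p below 0.13 in this test, so no difference here can pass a threshold of 0.05. The libraries also share the regions, and the spread between them reflects only where each placed its summit. The promoter share was lower in regions of fewer libraries, at 68.7% in the 977 three-library regions and 61.7% in the 3572 regions of 1 or 2 libraries.

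**Figure D3:**
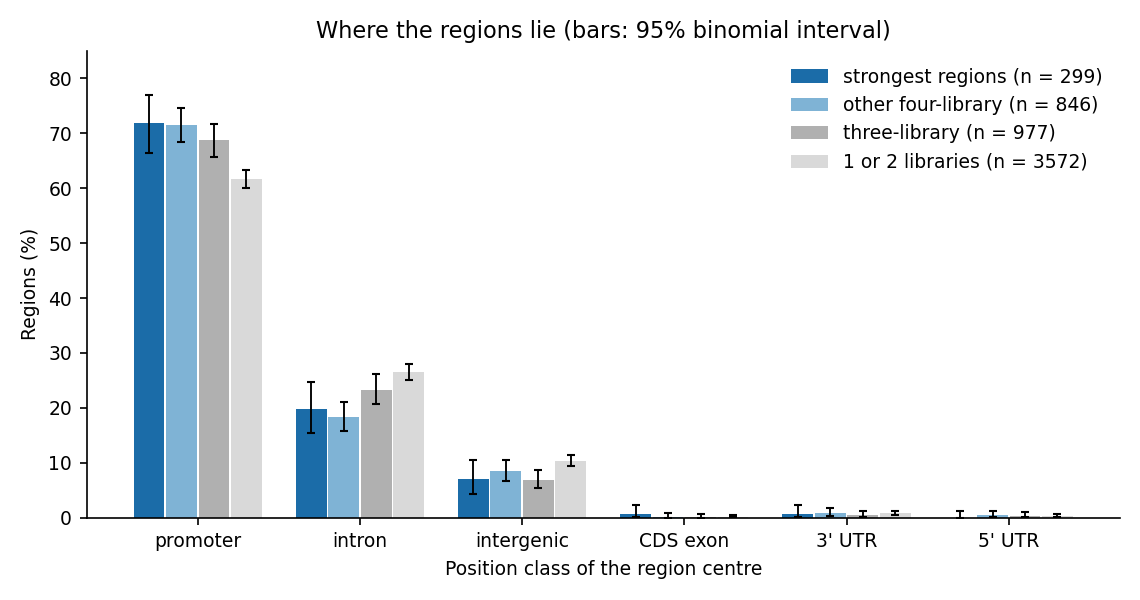
Percentage of regions in each position class, for the 299 strongest regions, the other four-library regions, three-library regions and regions of 1 or 2 libraries; bars are shares with 95% exact binomial intervals. Promoters hold 71.9% of the strongest regions, against 71.5%, 68.7% and 61.7% in the other sets.

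Inside the 299, the promoter share was not even along the ranks. It was 62.7% in the 75 highest-ranked regions, 73.0% in the next 74, 78.7% in the next 75 and 73.3% in the last 75. With the limit moved to the upper 10% of each list, 115 regions remained, and 64.3% of them were promoters. Introns such as those of KCNQ, ftz-f1, bun and Cerk were thus common at the top, where 10 of the 25 leading regions lay.

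At promoters the centres sat mostly just upstream of the start. Of the 215 promoter regions, 163 (75.8%, interval 69.5 to 81.4) had their centre upstream of the nearest TSS, against 67.9% (64.1 to 71.6) of the 605 other four-library promoter regions. Per library the difference was 8.06 ± 1.47 percentage points and was above 0 in 4 of 4 (exact sign-flip permutation, two-sided, p = 0.13). The median centre was 35 bp upstream, against 32 bp in the other promoter regions. Promoters of more than 1 gene made up 57 of the 215 (26.5%), against 33.1% of the other set. Over all classes the median distance to a TSS was 147 bp, against 127.5 bp, and 33 regions (11.0%, against 9.81%) lay more than 5000 bp from one. The farthest was in an intron of mamo, a BTB zinc finger gene, 42761 bp from a start site. The site nearest to vvl, a POU-domain factor gene, was 34101 bp away.

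Region centres were richer in G and C than their surroundings. GC content averaged 49.6% in the 101 bp around the joined centre and 40.7% in windows 500 bp to either side. With each library's own summits it was 49.5 ± 0.238% for the 299 regions and 48.4 ± 0.0792% for the other four-library regions (SD, n = 4 libraries). The difference of 1.13 ± 0.271 percentage points had the same sign in 4 of 4 libraries (exact sign-flip permutation, two-sided, p = 0.13).

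CGATA was the word that marked the centres most. Within the 101 bp around the centre, 120 of the 299 regions held it on either strand (40.1%, interval 34.5 to 45.9), against 11.5% of the flanking windows of the same 299 regions. The other four-library regions had 34.4% (31.2 to 37.7), and all 5744 joined regions had 26.3%. With each library's own summits, the central share exceeded the flanks by 27.9 ± 1.88 percentage points and exceeded the other four-library regions by 5.04 ± 1.39 points, in 4 of 4 libraries each (SD, n = 4). Both gave an exact sign-flip p of 0.13, two-sided, and Benjamini-Hochberg values over 30 motifs of 0.197 and 0.234. The word was densest in the bin 20 bp from the centre, where 20.7% of the 299 regions held it, against a peak of 15.4% in the other set.

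Of the 120 regions with CGATA, 108 were promoters. Of the 215 promoter regions 108 held CGATA (50.2%, interval 43.4 to 57.1), against 271 of the 605 other four-library promoter regions (44.8%). As a scale for all promoters, 25.98% of the 19252 annotated start sites had it in the 100 bp upstream. Of the 59 intron regions 10 had it (16.9%, interval 8.44 to 29.0), against 6.45% of the other set, and of the 21 intergenic regions 0 (upper limit 16.1%), against 12.5% of 72. At promoters 60 regions (27.9%, interval 22.0 to 34.4) held 3 or more copies, against 20.2% (17.0 to 23.6) in the other four-library set and 11.8% and 7.35% in the sets of fewer libraries. Each TATCGATA counted as 2 copies, so 3 or more copies can be fewer than 3 separate sites. Per library, that difference from the other four-library set was 7.46 ± 1.36 percentage points (exact sign-flip permutation, two-sided, p = 0.13).

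There were 6 regions with 5 or 6 copies, each TATCGATA again counted as 2, all within 62 bp of a start site. Those with 6 were the promoters of mtSSB, the mitochondrial single-stranded DNA-binding protein gene, at ranks 64, 87, 101 and 32, and of Hsp110, a chaperone gene, at ranks 306, 122, 157 and 73. Those with 5 were spin, hts, EndoGI and Scsalpha1, named here after their values were seen. None of the 6 was among the 25 leading regions, of which 5 held any CGATA: Capr with 3 copies, MESK2 with 4, IntS6 with 2, and Ppa and upSET with 1. In the 75 highest-ranked regions and the next 74, 75 and 75, 36.0%, 45.9%, 45.3% and 33.3% of regions held the word.

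**Figure D4:**
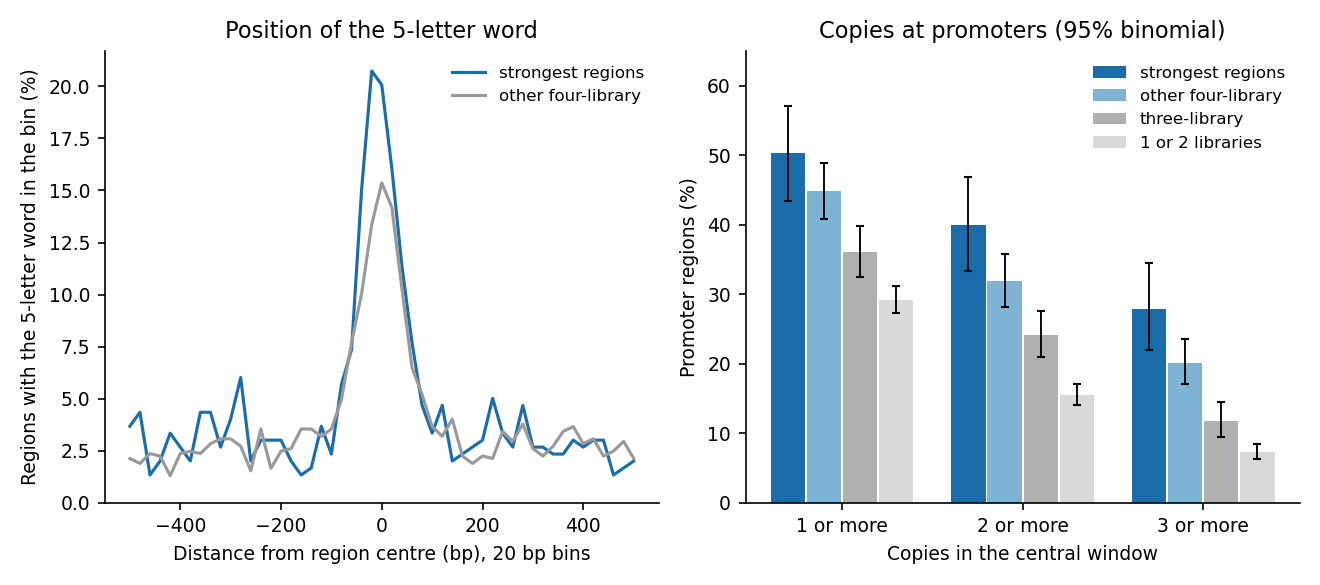
Left, the percentage of regions that hold CGATA on either strand in bins of 20 bp along the plus strand around the region centre, for the 299 strongest regions and the other four-library regions. Right, the percentage of promoter regions with at least 1, 2 or 3 copies in the central 101 bp, with 95% exact binomial intervals. A TATCGATA counts as 2 copies. Of the strongest promoter regions 27.9% hold 3 or more copies, against 20.2%, 11.8% and 7.35% in the other sets.

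The DRE, TATCGATA, which contains CGATA on each strand, was present in 34 regions (11.4%), against 0.167% of their flanking windows and 9.93% of the other four-library regions. The CA repeat CACACAC was in 14.7%, against 5.35% of flanks and 12.6% of the other set. GAGAGAG, the word of GAGA factor, was in 6.69%, against 2.17% of flanks and 8.16% of the other set. In these 101 bp it was less frequent in the strongest regions than in the others in 4 of 4 libraries, with a difference of -0.955 ± 0.428 points (SD, n = 4; adjusted p = 0.234, exact sign-flip permutation). Outside them the order varied: in the bin at -120 bp 3.68% of the strongest regions held it, against 2.01% of the others, and at 120 bp 1.34%, against 2.72%. The E-box CAGCTG was in 8.70%, against 4.85% and 8.98%. Of all 5744 joined regions, 6.15% held the DRE, 10.3% the CA repeat, 6.96% GAGAGAG and 7.61% the E-box. In the 100 bp upstream of annotated start sites the shares were 5.20%, 3.31%, 3.49% and 7.64%. The shares of GAGAGAG and the E-box in the 299 regions were thus near those of all joined regions. Each of these 4 words exceeded its flanks in 4 of 4 libraries (exact sign-flip p = 0.13, adjusted 0.197 over 30 motifs). The size of the excess depended on the limit: at the upper 10% of each list it was 5 points for the DRE and 9.13 points for GAGAGAG, against 10.3 and 5.02 points at the upper 25%. The nuclear receptor word AGGTCA was in 1.34% of the 299 centres and 2.17% of flanks, and the longer word CAAGGTCA of Ftz-f1 was in none of the centres.

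Without a choice of motifs, all 2080 words of 6 letters, each joined with its reverse complement, gave a like picture. CGATAG led, in 26.8% of centres against 1.67% of flanks, and 7 of the first 10 held CGATA or the overlapping word ATCGA. The CA word of the same length was in place 4, in 25.8% against 10.03% of flanks and 19.98% of the other four-library regions, the largest excess over that set of any 6-mer. AATAAA was the most depleted, in 5.02% against 22.6%.

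Several genes carried more than 1 of the 299 regions. The gene with most was ftz-f1, with 6 regions, 5 of them in its body. Its promoter region, 213 bp upstream of the annotated 5′ end, stood at ranks 139, 188, 273 and 81. Its intron regions lay 9886, 11593, 14714, 19424 and 41940 bp into the gene, with mean rank percentiles of 95.5, 97.6, 86.4, 96.6 and 99.3. The region closest to the 3′ end, 5587 bp from an inner start site, was the strongest of the 6 in every library. Only the one at 11593 bp held a CGATA.

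Tlk, the gene of Tousled-like kinase, which acts in chromatin assembly, had 5 regions, all in its body. Of these, 4 lay 20988 to 24677 bp from its 5′ end, at mean percentiles of 98.0, 97.2, 93.8 and 95.6. Their nearest start sites, also inside the gene, were 1098, 2624, 3349 and 2479 bp away. The last lay 61020 bp in, 884 bp from a further inner start site. The gene of the Beaten path family member beat-Ib held 4 regions in introns between 48835 and 53438 bp from its 5′ end, the strongest at ranks 24, 56, 47 and 99. None of the 9 regions of these 2 genes held CGATA in its centre.

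Eip74EF, an Ets factor gene induced by ecdysone, had a region at its start and others 2301 and 5188 bp inside. Their ranks ran from 84 to 382. For brk, the gene of the repressor of Dpp targets, the regions lay 298, 1146 and 6810 bp upstream of the start. Their mean percentiles were 97.2, 93.7 and 82.9, and all of them lay in the body of CG1677. In raw the strongest of 3 regions was an intron site 22516 bp from the 5′ end and 3561 bp from an inner start site. It stood at ranks 46, 36, 48 and 41, while the one 491 bp in stood at 753, 492, 494 and 624. Around Su(z)2, a Polycomb group gene, 4 regions lay from 5481 bp upstream to 19354 bp past the start. Another 4 lay around cg, the gene of the zinc finger protein Combgap, with 1 in its body and the rest nearest to ReepB or Sdb. CG5953 had 3, led by its intron region at ranks 65, 44, 13 and 36, and 3 each lay within 10 kb of Nup358, of the uncharacterised genes CG14434 and CG43736, and of their close neighbours. Over the genome, neighbouring regions were closer than 10 kb in 42 cases and closer than 1 kb in 5, with a median gap of 197324 bp.

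**Figure D5:**
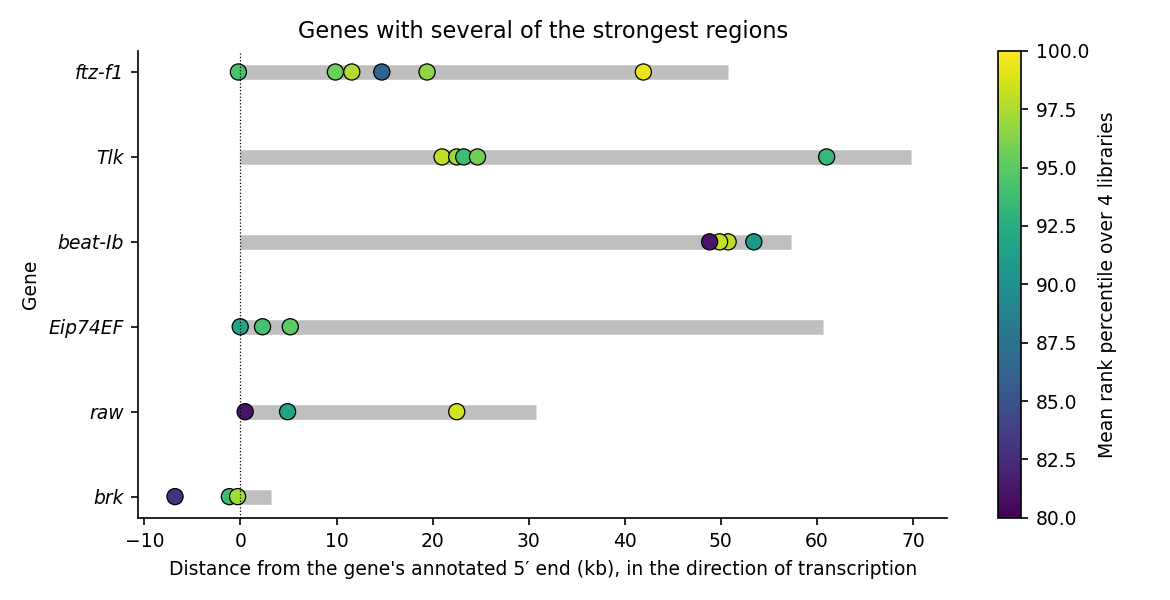
Positions of the regions at 6 genes, in kb from the annotated 5′ end in the direction of transcription; grey bars are gene bodies and the colour of a point is the mean rank percentile over the 4 libraries. The ftz-f1 body holds regions from 9.886 to 41.94 kb, with the strongest farthest in. The brk regions lie upstream of brk, in the body of CG1677.

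Taken by genes, 271 of 13945 protein-coding genes had one of the 299 regions within 1000 bp of a TSS, which is 1.94%, and 321, or 2.30%, had one there or in the body. Another four-library region lay at a TSS of 793 genes, or 5.69%, and 31 genes had both kinds at a TSS. The 31 lists of genes named next were chosen with earlier results of these data known, and their counts are a description beside those shares.

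Among genes of ecdysone signalling and nuclear receptors 4 of 35 had a region at a TSS, namely EcR, Eip74EF, Eip75B and ftz-f1, and Hr39 had one in its body. These are the receptor of the steroid pulse, early response genes and orphan receptors of the same cascade. Eip75B was the lowest of them, at ranks 207, 194, 279 and 516. Of the 35 genes, 7 had another four-library region at a TSS, a count that can include genes named above.

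The JAK/STAT pathway had 3 of 15. They were its transcription factor Stat92E (ranks 402, 580, 298 and 75) and the feedback inhibitors Socs36E (131, 234, 67 and 84) and Socs16D (722, 500, 453 and 274). The JNK group had kay, the fly Fos gene, at ranks 114, 139, 164 and 124, and raw, with puc, the JNK phosphatase gene, in the body, so 2 of 14 at a TSS. The EGF receptor pathway had 3 of 22, the ligand gene spi (48, 62, 64 and 59), the inhibitor gene sty, and edl, an Ets regulator. Of the genes named for these pathways, spi alone encodes a ligand. Another four-library region lay at a TSS of 4 of 15 JAK/STAT genes, 4 of 14 JNK genes and 4 of 22 EGF receptor genes.

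The Notch pathway had 3 of 26: numb, the inhibitor gene, E(spl)m3-HLH, a target gene, and mam, the coactivator gene, whose body held the highest region of the list at ranks 22, 18, 66 and 80. The BMP pathway had 2 of 24, brk and cv-2, with shn in the body. The Wnt list had 1 of 26, which was again cv-2, the gene of a BMP-binding protein that both lists held. The Hedgehog list had 2 of 16, dlp and ihog, both genes of cell-surface proteins. The insulin and TOR list had 1 of 24, the kinase gene Akt at ranks 145, 59, 17 and 76, and InR in the body. The FGF list of 6 and the Hippo list of 18 had none. Genes with another four-library region at a TSS numbered 2 of 26 for Notch, 6 of 24 for BMP, 6 of 26 for Wnt and 4 of 16 for Hedgehog. For insulin and TOR they numbered 0 of 24, for FGF 0 of 6 and for Hippo 3 of 18.

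The list of Chinmo's own family, the BTB zinc finger genes, had 3 of 21 at a TSS. BtbVII stood at ranks 86, 67, 82 and 100, Lmpt, a LIM domain gene that the list also held, at 120, 61, 201 and 110, and lola, a gene of axon growth with many isoforms, at 550, 453, 391 and 520. The BtbVII region was nearest to the start of Usp5. The region deep in mamo had ranks 122, 73, 39 and 114. Genes of neuroblast identity and temporal order had 3 of 36, which were hth, nub and grh, with brat and mamo in the body. The region in brat lay at the promoter of Polr1D. At hth, which encodes a Hox cofactor, the ranks were 428, 454, 59 and 26, so replicates 3 and 4 placed it far higher than replicates 1 and 2. Antp, a Hox gene, showed the same order in its intron, at ranks 477, 847, 110 and 157. Other Hox genes and cofactors gave tio, for 2 of 14, and the Sox list gave Sox14 and bbx, for 2 of 10. With another four-library region at a TSS there were 5 of 21 BTB zinc finger genes and 6 of 36 neuroblast genes. Such genes numbered 2 of 14 in the Hox list and 1 of 10 in the Sox list.

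Axon guidance genes had 4 of 37, namely Sema1b, Nrg, robo2 and trn. Polycomb and trithorax genes had 3 of 35, Su(z)2 (146, 109, 62 and 54), jing (19, 35, 78 and 55) and the Mediator subunit gene skd, with osa in the body. The skd region was nearest to the start of Pdss2. Adhesion and junction genes had Cad99C, Nrg and sdt, for 3 of 35. The list of insulator and promoter factors had 1 of 18 at a TSS, crol, and cg in the body. Counts with another four-library region at a TSS were 3 of 37 for axon guidance and 7 of 35 for Polycomb and trithorax genes. They were 5 of 35 for adhesion and junction genes and 4 of 18 for insulator and promoter factors.

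Other lists had few or none, and at a share of 1.94% a list this short may hold none. Beside each count stands the number of genes with another four-library region at a TSS. Segmentation genes had 0 of 28 (7 with another region), glial genes 0 of 19 (2), muscle genes 0 of 26 (1), tracheal genes 0 of 15 (3), apoptosis genes 0 of 14 (2), gut factors 0 of 15 (1) and cuticle protein genes 0 of 85 (2). Cell cycle genes had 0 of 24 (4), with Mnt in the body, and ion channels 0 of 23 (0), with KCNQ in the body. Immune genes had 1 of 32 (5), namely Dif, an NF-kappaB factor gene. Ribosomal protein genes had 1 of 92 (7), RpL32 (ranks 414, 229, 24 and 18). Odorant and taste receptors had 1 of 119 (0), Or88a (155, 85, 98 and 137), whose region was nearest to the start of CG12402.

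The arms of the genome were not equally represented. Arm 2R held 80 of the 299 regions (26.8%, interval 21.8 to 32.2), against 19.9% (17.2 to 22.7) of the other four-library regions and 20.5% of protein-coding genes. Arm 3R held 55 (18.4%, against 23.2%), 3L 53, 2L 60 and X 51, and chromosome 4 held 0, against 4 of the others. Of the 25 leading regions 10 were on 2R. In each library alone, 2R held 23.1%, 24.9%, 22.4% and 23.5% of the upper 25% of peaks in replicates 1 to 4, against 21.8%, 22.3%, 21.3% and 21.8% of the rest.

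Of the 299 regions 1 lay within 200 bp of a small RNA gene (0.334%), against 4 of the other 846 four-library regions (0.473%). Other non-coding genes were not examined. The gene was that of 7SK snRNA, which restrains the elongation factor P-TEFb, at ranks 80, 86, 34 and 22 (chr3R:7474668-7475022).

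The 299 regions also ranked high in the lists the authors made for the whole series. In the list named conservative, of 5841 peaks, 298 of the 299 were found, all in its upper 25%, with a median rank percentile of 97.0, against 97.6% found and a median of 85.3 for the other four-library regions. In the longest list, of 13848 peaks, 298 were found with a median percentile of 98.7, against 93.7. These lists were made from the same series and are no separate support.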

How the data were processed

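ChIP-seq peak lists of 4 biological replicates of whole embryos were used. Per the labels, chromatin was sonicated to 200 to 800 bp, positions are on dm6, and the description has the antibody against GFP, which was followed here although the antibody field reads chinmo. The age field holds an hour value that cannot be an embryo's age, so the age comes from the source label. Neither the read aligner nor the program that called peaks is given in the sources used here.

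For each library the authors deposited a thresholded and a ranked list from an irreproducible discovery rate (IDR) analysis. The signal of a peak is the deposited value of column 7, with no unit stated, and was used only to rank peaks within a list. The deposited score was at least 830 in all 4 thresholded lists. Other deposited columns (positions, summit offsets and the signal of both IDR inputs, whose nature is not stated) were used as they stand. Of the lists of the whole series, 2 were used; which libraries each compares is not stated.

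Python 3.11.15 with pandas 2.3.3, numpy 2.4.6 and scipy 1.17.1 joined summits within windows of 100 bp to each side; 3 peaks of replicate 3 off the 6 arms were left out. A region's centre was its median summit. Gene models came from Ensembl release 115 (BDGP6.54) and sequence from RefSeq Release 6; 13919 of 13920 symbols shared by the 2 annotations had the same coordinates. Promoter (within 1000 bp of a TSS) took precedence over exons and UTRs, and those over introns and intergenic DNA. Motifs were searched on both strands in 101 bp, so a TATCGATA counts as 2 copies of CGATA. Differences were tested by exact sign-flip permutation over the 4 libraries, shares carry 95% exact (Clopper-Pearson) intervals that cover counting error only, and the joining step was checked on simulated data.

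The regions, gene lists and motifs were chosen with earlier results of these data known. Named genes are those of the 25 regions with the highest mean rank percentile, up to 4 genes per list, genes with 3 or more regions in or within 10 kb of them, and those at the limit and of widest range. Printed sequences touch no annotated UTR, and none is from arm 2R. An older symbol was needed for 17 list names, and 22 names had no match.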

Additional observations from a re-analysis of the deposited data

Results flagged for a closer look

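Of 89 sets of 4 library values, 12 had 1 library farther from the others than Dixon's 95% limit allows. For independent sets without ties, chance gives about 1 in 20. These sets overlap, some hold tied values, and some are rank percentiles, which the rule used. The count can therefore not be read against that rate, and each of the 12 is given as a value. The region in KCNQ near mlt had a rank percentile of 99.4 in replicate 3, below the other libraries, and the Cerk region one of 97.7, also in replicate 3. The upSET region had 97.6 in replicate 1. The share of the 299 regions with CGATA exceeded the flanks by 25.1 percentage points in replicate 1, less than in the others (28.6 to 29.1). For the DRE, replicate 1 stood apart with 9.03% of the 299 regions, with 0% of their flanking windows, and with a difference of -0.308 points from the other four-library regions. For CACACAC, the flanks of replicate 3 had 6.86%. Replicate 4 differed by 1 region in the other four-library set, whose 5′ UTR share was 0.355% and intergenic share 8.39%, so that the strongest regions differed from it by -0.355 and -1.37 points.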

How the results depend on the processing

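No paired analysis was possible because the samples form 1 group. Moving the limit to the upper 10% or the upper 50% of each list gave 115 and 624 regions, with 98 and 580 genes at a TSS and promoter shares of 64.3% and 73.1%. The promoter share was 72.2% with peaks of score 1000 only, 72.3% with windows of 50 bp for joining, 69.2% with the chinmo locus kept, 64.5% with promoters taken as within 500 bp and 77.6% within 2000 bp; leaving out 1 library gave 70.8% to 74.1%. The difference in promoter share from the other four-library regions, 0.197 points, turned negative at the upper 10% (-8.30), with score 1000 (-0.659), windows of 50 bp (-0.114), the locus kept (-1.84) and 2000 bp (-1.34); the cause was not tested. The median summit spread was 33 to 38 bp with 1 library left out, where 3 summits enter in place of 4. The GC difference (0.749 to 1.55 points) and the CGATA excess over flanks (24.1 to 30.3 points) kept their sign in 13 alternatives each, as did the excess of the DRE (5 to 13.6), the CA repeat (3.89 to 14.8), the GAGA word (2.55 to 11.8) and the E-box (1.59 to 6.52 points), whose size moved by over 1.5 times. Leaving out a library leaves 3, whose smallest p is 0.25. With depth unknown, a region without a called peak in some library cannot be read as unbound there.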
